A study of Mus musculus with 12 samples.

Results

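Acot1, Acot2, Ces1d, Pdk4, Ucp3, Angptl4 and Plin5 are 7 genes of fatty acid use that respond to the fat supply of the heart, and their expression was followed in mouse hearts after aortic banding with and without hispidulin. They were found by the NCBI Gene identifiers of these symbols, and all 7 were present among the 18079 genes of the expression table. The genes were selected on values of these same hearts in all 4 groups, with earlier results known. Their levels and fold changes are therefore a description. No p-value is printed for them, and where the text counts those past the threshold of a fit over all genes, the count is a description too.

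Peroxisome proliferator-activated receptors (PPARs) are nuclear receptors that bind fatty acids and their derivatives, pair with a retinoid X receptor and raise the transcription of genes for fatty acid uptake, storage and oxidation. The heart takes most of its energy from fatty acids, and PPARα and PPARδ are the forms best known in heart muscle. In rodents, fasting, diabetes and dietary fat raise the RNA of many of these targets in the heart, and pressure overload is known to lower a number of them. Acot1 and Acot2 are thioesterases that split acyl-CoA into a free fatty acid and coenzyme A, Acot1 in the cytosol and Acot2 in mitochondria. Ces1d is a carboxylesterase that hydrolyses triacylglycerol and other esters. Pdk4 is a kinase that inactivates pyruvate dehydrogenase, Ucp3 is a carrier of the mitochondrial inner membrane that is most abundant in muscle, Angptl4 is a secreted inhibitor of lipoprotein lipase, and Plin5 coats lipid droplets in oxidative tissues.

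Polyadenylated RNA was measured in left ventricular muscle of 12 male C57BL/6 mice, 3 in each of 4 groups. Mice had aortic banding (AB), in which a ligature narrows the descending aorta and overloads the left ventricle, or sham surgery, and hearts were taken 4 weeks after surgery. Age at surgery was 8 weeks by the labels, and the methods allow up to 10 weeks. All mice received daily intraperitoneal injections from 1 day before surgery to the end: the DMSO+Sham and DMSO+AB groups received the solvent DMSO, and the hispidulin+Sham and hispidulin+AB groups received hispidulin, a plant flavone, at 20 mg/kg. Every group therefore had an operation and an injected solvent, and no mouse was left untreated. Values are FPKM, in which the reads of a gene are scaled by transcript length and library size, so levels of different genes can be set side by side. Sequencing depth is unknown, and no counting error can be given. The labels do not say whether mice of a group shared a cage or litter, so errors measure the spread between the 3 mice.

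Acot1 and Acot2 lie next to each other on chromosome 12 and are close copies, which bears on every value given for them. Their coding sequences, of 1260 and 1362 bases, were identical at 95.2% of 1239 aligned bases, with 59 bases that differed and an identical run of 273 bases. The stretch of 50 coding bases with the most differences is shown first because reads from it can be told apart. It lies in exon 1 of 3 in both genes, at chr12:84009511-84009560 for Acot1 and chr12:83988026-83988075 for Acot2 (GRCm38, plus strand, GENCODE transcripts), and the 10 differing bases are in capitals.
Acot1: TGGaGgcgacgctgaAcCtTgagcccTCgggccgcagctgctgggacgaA
Acot2: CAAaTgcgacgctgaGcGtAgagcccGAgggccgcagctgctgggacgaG
Within the identical run a 50-base read matches both genes equally. The example below comes from exon 3, at chr12:84017117-84017166 in Acot1 and chr12:83992839-83992888 in Acot2.
Acot1 and Acot2: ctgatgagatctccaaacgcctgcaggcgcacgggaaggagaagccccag

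The reads of the study were 50 bases long, so every 50-base window of the longest coding transcript of each gene was looked up in the transcripts of all other genes. For Acot1, 33.6% of its 2223 windows also occurred elsewhere, and 23.7% of the 2223 occurred in Acot2. For Acot2, 27.7% of all windows occurred elsewhere and 24.5% occurred in Acot1. Ces1d shared 1.28% of its windows and Pdk4 1.43%, and Ucp3, Angptl4 and Plin5 shared 0. The levels of Acot1 and Acot2 are thus partly set by how shared reads were divided between them, which the sources used here do not describe.

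**Figure D1:**
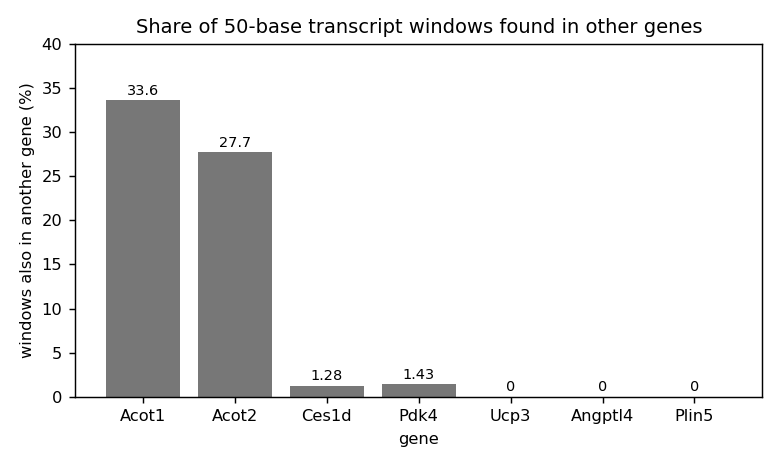
Share of the 50-base windows of the longest coding transcript (percent, vertical axis) that also occur in a transcript of another gene, for each of the 7 genes. Acot1 (33.6%) and Acot2 (27.7%) stand above the other 5 genes, of which Pdk4 is highest at 1.43%.

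PPARs bind a direct repeat of a 6-base unit with a 1-base spacer, AGGTCANAGGTCA. Promoter sequences of 300 bases (250 before to 50 after a start site, RefSeq, GRCm38.p6) were available for 5 of the 7 genes, Acot1, Acot2, Pdk4, Ucp3 and Plin5. Both strands were searched for the repeat with at most 2 of its bases different, and 1 of the 5 genes, Ucp3, held a match. Among all 32851 promoters, 3.86% held such a match. The Ucp3 match started 51 bases before the start site and had 2 bases different, and it is shown in capitals within chr7:100472916-100472976 on the plus strand.
Ucp3: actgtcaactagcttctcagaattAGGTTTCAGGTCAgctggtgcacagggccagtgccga
The exact unit AGGTCA, which is part of the repeat, occurred on either strand in 16.3% of all promoters. It was found 2 times in the Ucp3 promoter, 1 time in each of 2 overlapping Plin5 windows and 0 times in those of Acot1, Acot2 and Pdk4. A match in these letters is a description of the sequence and does not show that a receptor binds there.

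Before the values, 4 features of the libraries bear on them. DMSO+Sham 3 stood apart in clock and stress genes: its Arntl, a core clock gene, was 10.4 FPKM against 0.78 to 2.76 in the other 11 hearts, and its Mt2, a metallothionein, was 1368 FPKM against 55.1 to 574. Genes of atrial muscle were high in hispidulin+Sham 3, DMSO+AB 2 and hispidulin+AB 3, where the atrial light chain Myl7 reached 333, 67.5 and 42.3 FPKM against at most 15.03 FPKM elsewhere. DMSO+AB 1 had 680 FPKM of Nppa, the atrial natriuretic peptide gene that overload induces, against 6043 and 5738 FPKM in DMSO+AB 2 and 3. The summed FPKM of 7 ventricular muscle markers ran from 34381 to 44024 in DMSO+Sham and from 35492 to 39638 in DMSO+AB, so ventricular muscle was present in every library. Of these 7 markers 5 had a lower and 2 a higher mean in DMSO+AB than in DMSO+Sham. Their log2 differences ran from -0.59 to 0.33 with a median of -0.21, and 4 had an unadjusted p under 0.05 in limma. The lowest was Ryr2, the calcium release channel, which fell by 0.59 (adjusted p = 0.0364 in limma) and was the only call. All 6 fibroblast markers had a higher mean in DMSO+AB than in DMSO+Sham, with a median log2 difference of 0.80. Of these 6, the collagen genes Col1a1 and Col1a2 rose by 1.86 and 1.60 (adjusted p = 0.0407 and 0.0464), and 5 had an unadjusted p under 0.05. Of all genes tested in this comparison, 5.21% passed and 20.4% (2378 genes) had an unadjusted p under 0.05. Col1a1 read 10.06, 26.4 and 8.50 FPKM in DMSO+Sham and 22.9, 74.8 and 75.6 FPKM in DMSO+AB, so DMSO+AB 1 lay within the sham range. The summed FPKM of the 6 markers was 330 to 395 in DMSO+Sham, 332 to 444 in hispidulin+Sham, 351 to 701 in DMSO+AB, lowest in DMSO+AB 1, and 362 to 533 in hispidulin+AB. The calls of Ryr2, Col1a1 and Col1a2 were all lost without DMSO+Sham 1, DMSO+Sham 3, DMSO+AB 2 or DMSO+AB 3, and likewise without hispidulin+Sham 1, hispidulin+Sham 2, hispidulin+AB 1 or hispidulin+AB 2. Those of Col1a1 and Col1a2 were lost without any 1 of the 6 hispidulin hearts. Of 10 fat cell markers, 7 stayed under 1 FPKM in every heart (Adipoq at most 0.40 FPKM, Plin1 at most 0.22 FPKM), and Fabp4 and Lipe, which heart tissue also expresses, were the highest of the list.

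Acot1 ranged more widely than any other of the 7 genes, 15.8-fold between the highest and the lowest heart. It read 31.9, 8.49 and 40.7 FPKM in the 3 DMSO+Sham hearts and 25.6, 14.2 and 12.4 FPKM in hispidulin+Sham. After AB it read 6.63, 2.58 and 3.33 FPKM with DMSO and 13.04, 16.6 and 8.16 FPKM with hispidulin. All 3 DMSO+AB hearts lay below every other heart of the study, whereas the hispidulin+AB hearts lay within the range of the sham groups apart from 1 heart just under it. The group means were 27.0 ± 16.7 (SD, n = 3) FPKM in DMSO+Sham, 17.4 ± 7.14 FPKM in hispidulin+Sham, 12.6 ± 4.22 FPKM in hispidulin+AB and 4.18 ± 2.15 FPKM in DMSO+AB. In that order, only the last neighbours did not overlap.

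On the log2(FPKM + 1) scale Acot1 was 2.26 (SE 0.50) lower in DMSO+AB than in DMSO+Sham, and the 2 groups did not overlap. Against DMSO+AB, the hispidulin+AB hearts were higher by 1.42 (SE 0.50), again without overlap. Between the sham groups the difference of -0.42 (SE 0.50) with hispidulin was smaller than its error. The wide DMSO+Sham group rested on DMSO+Sham 2, at 8.49 FPKM, and without this heart the difference under AB was -2.92 and that between the sham groups -1.08. Without DMSO+Sham 3, the highest heart, they were -1.85 and -0.01. In a bulk sample, fewer cells that express a gene and less RNA in each cell cannot be told apart.

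Acot2, the mitochondrial thioesterase, was the more abundant copy in every heart and moved less. It read 66.3, 43.0 and 46.5 FPKM in DMSO+Sham and 57.5, 52.2 and 45.9 FPKM in hispidulin+Sham. After AB it read 34.5, 30.7 and 27.4 FPKM with DMSO and 34.1, 42.3 and 33.6 FPKM with hispidulin. All 6 banded hearts lay below all 6 sham hearts. The difference under AB was -0.71 (SE 0.16) on the log2 scale with DMSO and -0.49 (SE 0.16) with hispidulin, and that of hispidulin+AB against DMSO+AB was 0.24 (SE 0.16), with overlap. The last value was 0.13 without hispidulin+AB 2 and 0.16 without DMSO+AB 3.

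Because reads are shared, the summed FPKM of Acot1 and Acot2 was taken as well. The sum was 78.9 ± 24.4 (SD, n = 3) FPKM in DMSO+Sham, 69.2 ± 12.6 FPKM in hispidulin+Sham, 35.03 ± 5.45 FPKM in DMSO+AB and 49.2 ± 8.77 FPKM in hispidulin+AB. Every DMSO+AB heart (30.7 to 41.1 FPKM) was below every hispidulin+AB heart (41.7 to 58.9 FPKM), by a narrow gap. Acot1 made up 7.76% to 16.1% of the sum in DMSO+AB, 19.6% to 28.1% in hispidulin+AB and 16.5% to 46.7% in DMSO+Sham. The 4 other thioesterase genes of the same cluster, Acot3, Acot4, Acot5 and Acot6, were at most 0.64, 0.86, 0.25 and 1.19 FPKM in any heart.

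Ces1d, the carboxylesterase, was far lower in banded than in sham hearts with DMSO, 18.8 ± 14.1 against 67.4 ± 12.8 FPKM (SD, n = 3). It read 73.8, 75.8 and 52.7 FPKM in DMSO+Sham and 66.6, 81.4 and 62.6 FPKM in hispidulin+Sham. In DMSO+AB it read 34.6, 7.75 and 14.1 FPKM, and in hispidulin+AB 42.3, 39.6 and 32.04 FPKM. The banded hearts were all below the sham hearts, and the DMSO+AB hearts were spread widely, with DMSO+AB 1 inside the hispidulin+AB range and the other 2 well under it. DMSO+AB 1 was also the DMSO+AB heart with low Nppa and low collagen RNA, and DMSO+AB 2 and 3, with the least Ces1d and Acot1, had the most Col1a1 of all hearts. The part of these differences between hearts in the values of Ces1d and Acot1 was not tested.

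The difference of Ces1d in DMSO+AB against DMSO+Sham was -2.01 (SE 0.37) on the log2 scale, and that of hispidulin+AB against DMSO+AB was 1.21 (SE 0.37), with overlap through DMSO+AB 1. Without DMSO+AB 1 the second difference was 1.75, and without DMSO+AB 2 it was 0.74. With hispidulin, the mean of Ces1d was 70.2 ± 9.89 FPKM after sham surgery and 38.0 ± 5.31 FPKM after AB (SD, n = 3), a log2 difference of -0.87 (SE 0.37) without overlap. The sham groups differed by 0.07 (SE 0.37). The liver-type relatives Ces1e and Ces1f were at most 0.19 and 0.12 FPKM, and Ces1a and Ces1c at most 0.14 and 0.04 FPKM, all far under Ces1d. The summed FPKM of 5 hepatocyte markers was at most 3.66 in any heart, with Apoa2 at most 2.2, Ttr at most 1.85, Alb at most 0.53, Apoa1 at most 0.42 and Serpina1a at most 0.2 FPKM.

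Pdk4 was the most abundant of the 7 genes and did not separate banded from sham hearts. It read 954, 205 and 515 FPKM in DMSO+Sham, 756, 345 and 774 FPKM in hispidulin+Sham, 593, 412 and 349 FPKM in DMSO+AB, and 513, 554 and 658 FPKM in hispidulin+AB. The lowest and the highest heart of the study were both in DMSO+Sham. The 4 group means differed by less than the spread within DMSO+Sham, whose SD was 376 FPKM. The log2 difference was -0.08 (SE 0.46) for DMSO+AB against DMSO+Sham and 0.38 (SE 0.46) for hispidulin+AB against DMSO+AB. The first changed sign with single hearts, from -0.67 without DMSO+Sham 2 to 0.43 without DMSO+Sham 1. The second was 0.59 without DMSO+AB 1 and 0.21 without DMSO+AB 3.

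Ucp3 was low in all 3 DMSO+AB hearts but also in 1 sham heart. It read 74.9, 32 and 15.8 FPKM in DMSO+Sham and 64.9, 40.6 and 46.0 FPKM in hispidulin+Sham. After AB it read 19.7, 17.0 and 22.1 FPKM with DMSO and 34.6, 36.4 and 31.6 FPKM with hispidulin. The banded groups were each narrow and did not overlap, and their log2 difference was 0.78 (SE 0.40). DMSO+Sham 3, at 15.8 FPKM the lowest heart of all, made the DMSO+AB and DMSO+Sham groups overlap. Their log2 difference of -0.76 (SE 0.40) was -1.29 without DMSO+Sham 3 and -0.20 without DMSO+Sham 1, the highest heart.

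Angptl4 was the only one of the 7 genes with a higher mean in DMSO+AB than in DMSO+Sham. It read 23.3, 4.70 and 7.01 FPKM in DMSO+Sham and 30.4, 6.41 and 13.4 FPKM in hispidulin+Sham. After AB it read 15.6, 14.0 and 10.6 FPKM with DMSO and 18.7, 18.4 and 24.6 FPKM with hispidulin. The sham hearts spanned the whole range of the study, and the banded groups were narrow and did not overlap. The log2 difference was 0.46 (SE 0.53) under AB with DMSO and 0.59 (SE 0.53) between hispidulin+AB and DMSO+AB. The first of these was 0.03 without DMSO+Sham 2, 0.28 without DMSO+Sham 3 and 1.08 without DMSO+Sham 1.

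Plin5, the droplet coat protein, had close means in the banded groups, 63.1 ± 13.1 FPKM with DMSO and 64.1 ± 3.75 FPKM with hispidulin (SD, n = 3). It read 122, 72.1 and 70.7 FPKM in DMSO+Sham and 102, 102 and 73.6 FPKM in hispidulin+Sham. After AB it read 57.4, 53.7 and 78.1 FPKM with DMSO and 64.6, 67.6 and 60.1 FPKM with hispidulin. Hispidulin+AB and DMSO+AB differed by 0.04 (SE 0.21) on the log2 scale, with a 95% interval from -0.42 to 0.50. With hispidulin, all banded hearts were below all sham hearts (-0.51, SE 0.21), and with DMSO the groups overlapped through DMSO+AB 3 (-0.45, SE 0.21). Without DMSO+Sham 1 the difference with DMSO was -0.19.

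**Figure D2:**
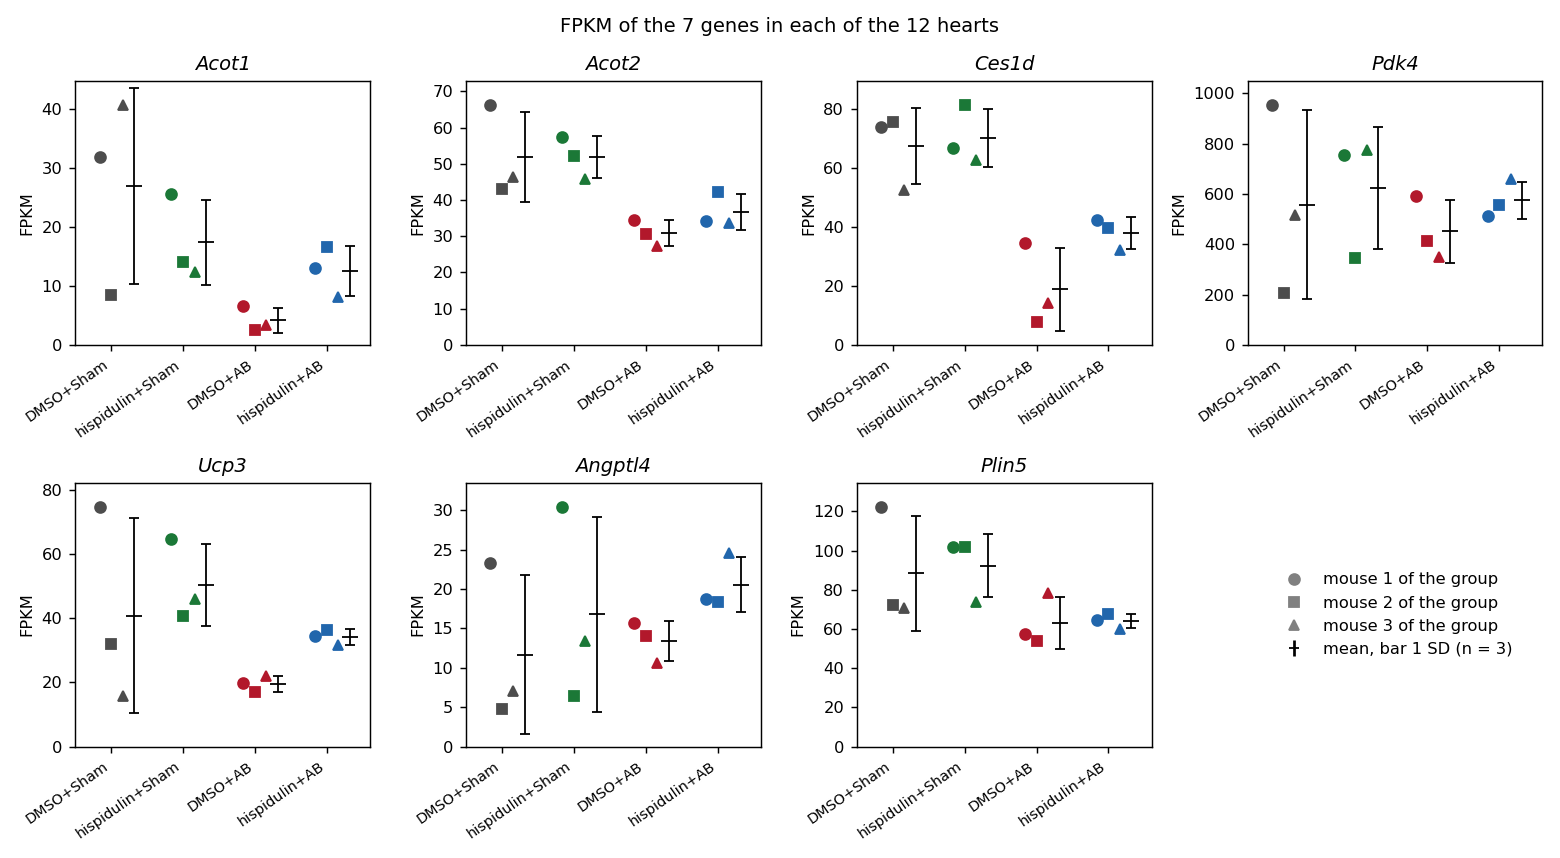
FPKM (vertical axes, each from 0) of the 7 genes in each of the 12 hearts by group (horizontal axes), with 1 point for each mouse and the mean ± SD of 3 mice beside it. Acot1, Acot2 and Ces1d are lowest in DMSO+AB (means 4.18, 30.9 and 18.8 FPKM), and Angptl4 runs from 4.70 to 30.4 FPKM in the sham groups.

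The comparisons were made with limma over all 11664 genes with at least 1 FPKM in at least 3 hearts, and all 7 genes passed that filter. Between DMSO+AB and DMSO+Sham, 6 of the 7 genes were lower and 3 of them, Acot1, Acot2 and Ces1d, had a Benjamini-Hochberg adjusted p under 0.05. Of all genes tested, 5.21% passed in this comparison and 2.71% passed and were lower. The 3 DMSO+AB hearts lay below the 3 DMSO+Sham hearts for the same 3 genes, against 10.8% of all genes. The genes were selected on this contrast, so nothing is read from these counts. The median log2 difference of the 7 genes was -0.71 and that of all genes -0.03. The count of 3 fell to 0 without DMSO+Sham 1 or without DMSO+AB 3, to 1 without DMSO+AB 2 and to 0 in a fit of the 6 hearts compared, and without DMSO+Sham 3 it was 3 with Ucp3 in place of Acot1.

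In hispidulin+AB against DMSO+AB all 7 genes were higher with hispidulin, with a median log2 difference of 0.59 against 0.00 for all genes, and 0 of them had an adjusted p under 0.05 in limma. The share of all genes that passed was 0%, and 362 of all genes had an unadjusted p under 0.05. Acot1, Ucp3 and Angptl4 did not overlap between the groups, against 4.23% of all genes that were higher without overlap. Without DMSO+AB 1, 20 of 11645 genes passed, of which Ces1d was 1 and the other 6 genes were not. This comparison and that of DMSO+AB with DMSO+Sham share the 3 DMSO+AB hearts, so a heart that reads low enters both with opposite sign.

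Between hispidulin+Sham and DMSO+Sham 0 of the 7 genes passed, as did 0% of all genes, with 287 genes at an unadjusted p under 0.05. All 7 genes overlapped between these groups, and 5.6% of all genes did not. Between hispidulin+AB and hispidulin+Sham 0 of the 7 genes and 0% of all genes passed, with 847 genes at an unadjusted p under 0.05. Over all genes 17 passed in this comparison with the replicate number as a block and 49 in a fit of the 6 hearts compared, where Ces1d was the only one of the 7 genes to pass. Acot2, Ces1d, Ucp3 and Plin5 were lower in all hispidulin+AB hearts, against 11.8% of all genes. The interaction of hispidulin and AB, the difference between the effects of hispidulin in banded and in sham hearts, was 1.84 (SE 0.70) for Acot1 and 1.14 (SE 0.53) for Ces1d, and it lay between -0.05 and 0.24 for the other 5 genes, with SEs from 0.23 to 0.74. Without 1 heart it ran from -0.47 to 0.63 for Pdk4, from -0.56 to 0.59 for Angptl4, from -0.33 to 0.76 for Ucp3, from -0.31 to 0.11 for Plin5 and from 0.04 to 0.34 for Acot2, with a change of sign in the first 4 of these. For Ces1d it was 0.67 without DMSO+AB 2 and 1.69 without DMSO+AB 1. For the interaction 0% of all genes passed, with 289 at an unadjusted p under 0.05.

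**Figure D3:**
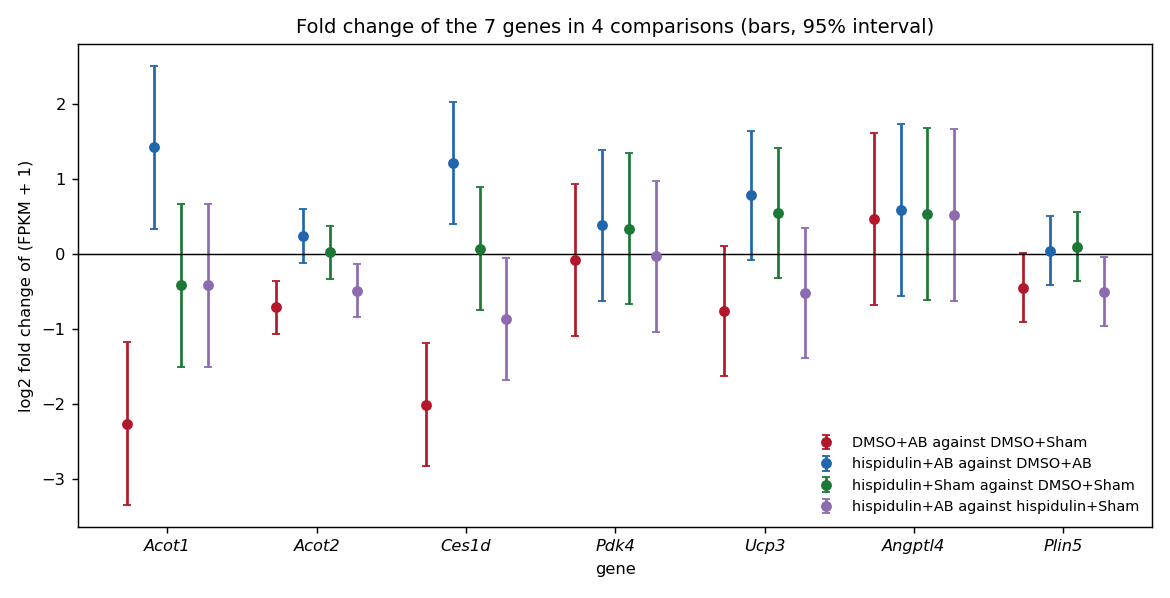
Log2 fold change of (FPKM + 1) of the 7 genes (vertical axis) in 4 comparisons (colours), with 95% intervals from limma. Acot1 and Ces1d have the lowest values under AB with DMSO (-2.26 and -2.01) and the highest with hispidulin after AB (1.42 and 1.21).

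The animal numbers in the labels fall into series beginning with 5 or 6, and DMSO+Sham 1 carries the number 1. No source used here calls them a batch. For hispidulin+AB against DMSO+AB, Acot1 differed by 1.08 in the first series (1 heart against 1) and by 1.59 in the second (2 against 2), and Ces1d by 1.13 and 1.25. For DMSO+AB against DMSO+Sham (1 heart against 1 and 2 against 1), Acot1 differed by -1.13 and -3.00 and Ces1d by -2.35 and -1.60. Ucp3 differed by -0.51 and 0.20. DMSO+Sham 1 belongs to neither series, so each series held 1 DMSO+Sham heart. For hispidulin+Sham against DMSO+Sham, Acot1 differed by 1.08 in the first series (2 hearts against 1) and -1.64 in the second (1 against 1).

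Other PPAR target genes, named from general knowledge of the pathway but with earlier results of these data known, were examined beside the 7 genes. The counts and adjusted p-values of this list are therefore a description and no independent support. Of 35 genes 31 were tested, and 12 of them fell in DMSO+AB against DMSO+Sham at an adjusted p under 0.05 in limma, while 0 rose, beside 2.71% of all genes that passed and were lower and 5.21% that passed in either direction. Slc27a1, a fatty acid transport protein, fell by 1.23 on the log2 scale (SE 0.22, adjusted p = 0.0124). Ech1 and Acaa2, enzymes of fatty acid oxidation in mitochondria, fell by 0.78 (SE 0.13, adjusted p = 0.0111) and by 0.77 (SE 0.13, adjusted p = 0.0117). Vldlr, a lipoprotein receptor, fell by 0.71, Mlycd, which degrades malonyl-CoA, by 0.68, and Hadha, a subunit of the trifunctional protein, by 0.56. The other 6 were Cpt2, Acadm, Acadvl, Hadhb, Eci1 and Eci2, all of the oxidation pathway. Genes that did not pass included Cpt1b (-0.18), Cd36 (-0.57), Lpl (-0.65), Pnpla2 (-0.64) and Plin2 (-0.44), and Ucp2 had the highest value of the list, 0.49 (SE 0.18).

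Acot1 and Ces1d had log2 differences beyond those of all 31 of these genes in the same comparison. The 7 genes were selected on values of these same hearts, so nothing is read from this. Pdk4 (-0.08) and Angptl4 (0.46) lay above the 28 genes of the list with negative values. The list's median was -0.50. Its count of 12 was 0 without DMSO+Sham 1, 1 without DMSO+AB 2, 5 without DMSO+AB 3 and 7 without DMSO+Sham 3, hispidulin+Sham 1, hispidulin+AB 1 or hispidulin+AB 2. With the 3 hearts of highest Myl7 left out, 0 of the 7 genes and 0 of these 31 passed. In hispidulin+AB against DMSO+AB, 28 of the 31 had a higher mean with hispidulin, beside 5993 of all 11664 genes, and 0 passed. The median was 0.23, and 5 had an unadjusted p under 0.05 in limma, beside 3.10% of all genes. As DMSO+AB against DMSO+Sham uses the same DMSO+AB hearts, a heart that reads low enters both comparisons with opposite sign. Acaa2 was among the 20 genes that passed without DMSO+AB 1, and the others of this list were not.

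**Figure D4:**
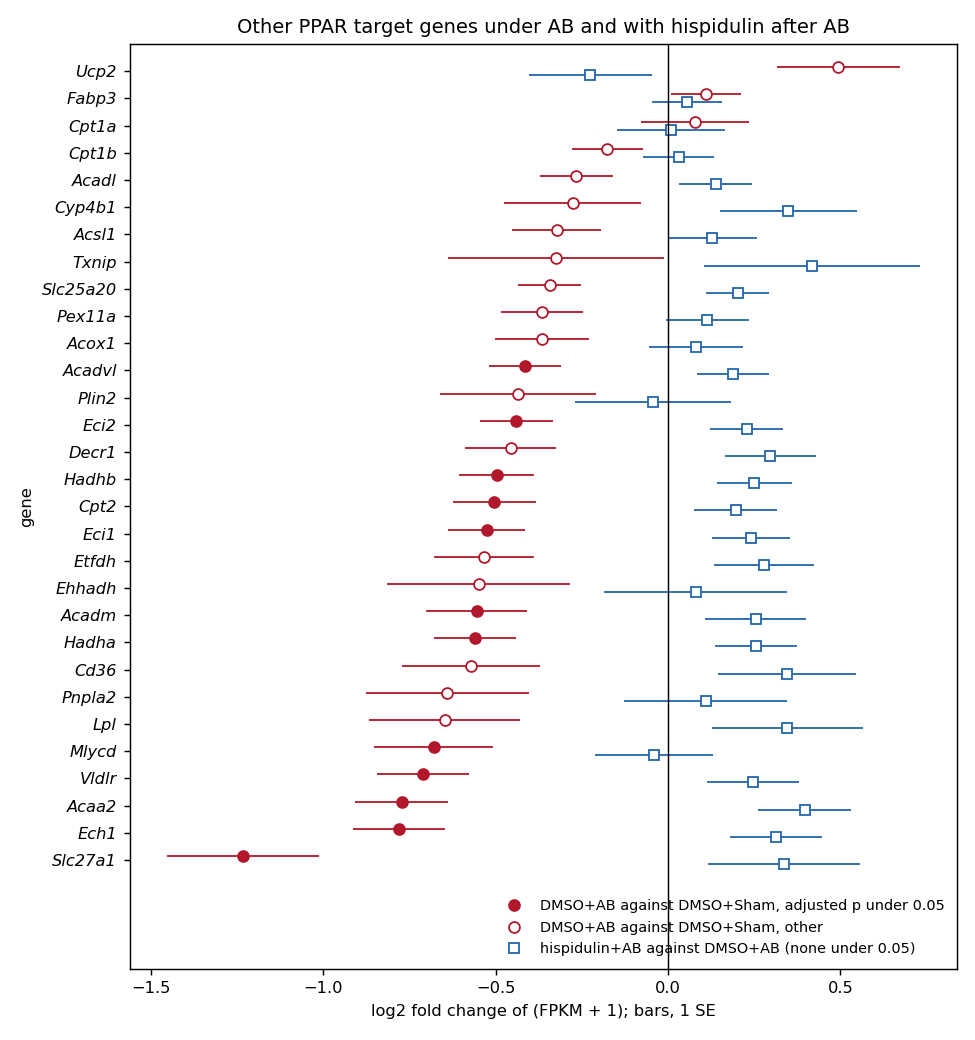
Log2 fold change of (FPKM + 1) with 1 SE (horizontal axis) of 30 of the 31 other PPAR target genes tested in DMSO+AB against DMSO+Sham (circles, filled where the adjusted p was under 0.05) and in hispidulin+AB against DMSO+AB (squares). The 12 filled circles are all left of 0, from -1.23 for Slc27a1 to -0.42 for Acadvl, and both comparisons share the DMSO+AB hearts.

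Among 15 receptors, partners and coregulators of this pathway, 1 passed under AB with DMSO, a share near the 5.21% of all genes, so nothing is read from it for the list. Rxra, a retinoid X receptor with which PPARs pair, fell by 0.55 (SE 0.12, adjusted p = 0.0247 in limma). The receptor genes themselves read 9.10 to 17.5 FPKM for Ppara, 13.1 to 16.5 FPKM for Ppard and 9.30 to 13.3 FPKM for Pparg over all hearts. Their log2 differences under AB were -0.37 (SE 0.17), -0.12 (SE 0.10) and -0.02 (SE 0.12), and that of the coactivator Ppargc1a was 0.00 (SE 0.28). In hispidulin+AB against DMSO+AB the 15 genes lay between -0.08 for Esrra and 0.21 for Nrip1.

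The relatives and partners of each of the 7 genes were compared in the same way, and the counts are again to be set beside the 5.21% of all genes that passed. These lists are short, and nothing is read for a list from 1 or 2 calls. Of 7 tested other thioesterases and 3 tested other carboxylesterases, 0 passed under AB with DMSO. The thioesterases lay between -0.47 for Acot11 and 0.24 for Acot9, and Ces2e was highest among the carboxylesterases at 0.83 (SE 0.22, adjusted p = 0.0530 in limma). Of 10 genes that control pyruvate dehydrogenase, 1 passed, the phosphatase Pdp2, which activates the complex and fell by 0.82 (adjusted p = 0.0427). Pdk1 (-0.27) and Pdk2 (-0.37), other kinases of the complex, did not pass. Around Plin5, 2 of 13 lipid droplet and lipolysis genes passed: Plin4, another coat protein, fell by 0.82 and Fitm2, which acts in droplet formation, fell by 0.59. Of 4 other uncoupling proteins and nucleotide carriers, Slc25a5 rose by 0.34 (adjusted p = 0.0335). Both tested genes of lipoprotein lipase control, Gpihbp1 (0.32) and Lmf1 (0.05), did not pass. The calls of Rxra, Pdp2, Plin4, Fitm2 and Slc25a5 were all lost without DMSO+Sham 1 or without DMSO+AB 2, and those other than Rxra were also lost without several other hearts. In the other 4 comparisons 0 genes of any of these lists passed in limma.

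DMSO+Sham 2 was the lowest heart of the study for Pdk4 and Angptl4 and the lowest sham heart for Acot1. Among 12 glucocorticoid-responsive genes it was the lowest heart for 3, Fkbp5 (17.3 FPKM), Mt1 (394 FPKM) and Mt2 (55.1 FPKM), but hispidulin+Sham 1 was the lowest for another 3 and DMSO+AB 2 for 4. Tsc22d3 and Sgk1 of the same list were high in DMSO+Sham 2, at 107.9 FPKM in a range of 71.98 to 112.9 FPKM and at 62.6 FPKM in a range of 33.8 to 69.6 FPKM. DMSO+Sham 3 was the highest heart for Acot1 and the lowest for Ucp3, and it was the highest for 6 of the 12 glucocorticoid-responsive genes, with 72.8 FPKM of Fkbp5 and 2792 FPKM of Mt1. Of 14 clock genes, DMSO+Sham 3 was the lowest heart for 7 and the highest for 3. The part of time of day or of stress at harvest in these values was not tested. Of 12 glucocorticoid-responsive genes 2 passed under AB with DMSO, beside 5.21% of all genes: Klf15, which fell by 0.72 (adjusted p = 0.0278 in limma), and Foxo3, which fell by 0.66 (adjusted p = 0.0464), and of 13 clock genes 0 passed. Both calls were lost without DMSO+Sham 1, DMSO+Sham 3 or DMSO+AB 2, and that of Foxo3 also without any 1 of the hispidulin hearts, DMSO+AB 1 or DMSO+AB 3, with the replicate block, with median-of-ratios scaling and with no mean-variance trend.

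**Figure D5:**
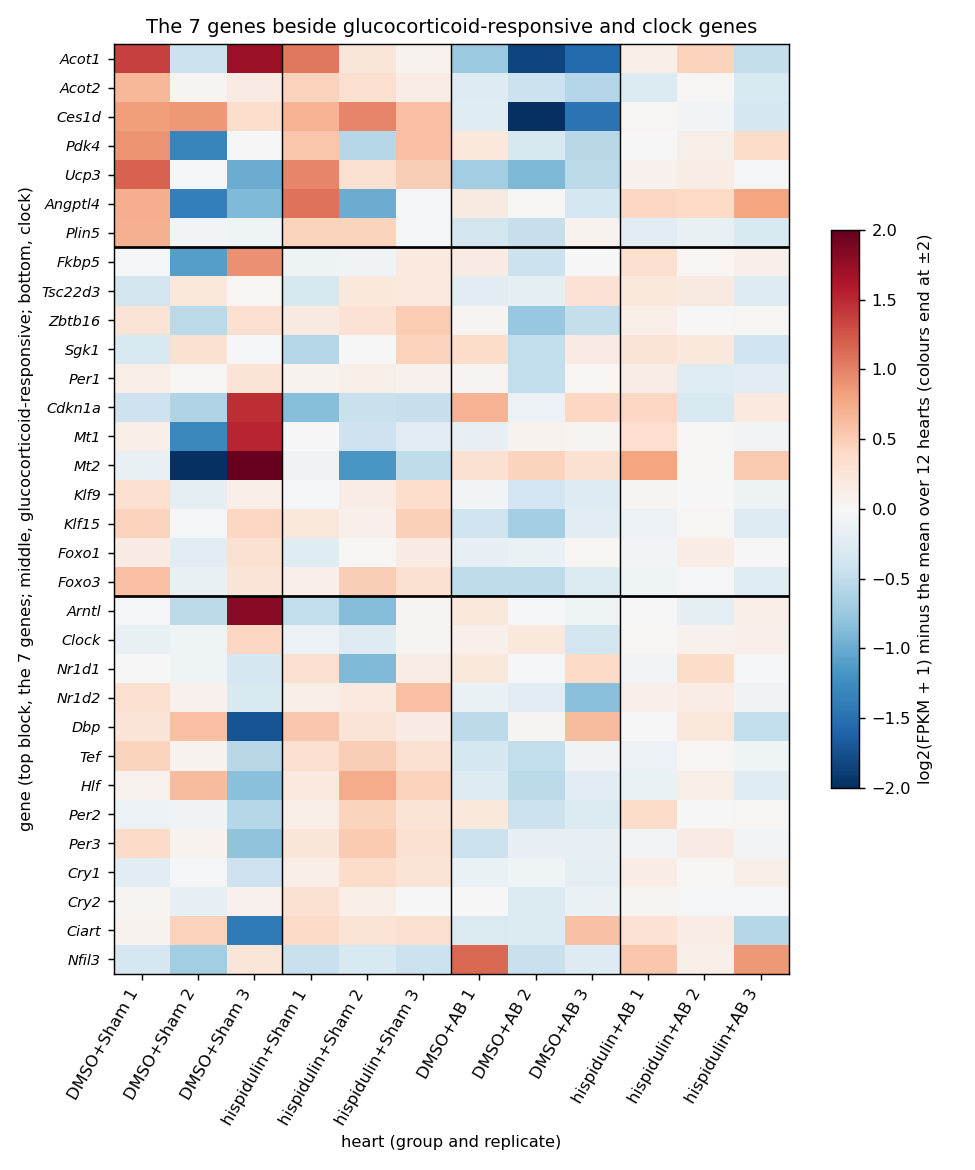
Log2(FPKM + 1) minus the mean over the 12 hearts (colour, ending at ±2) for the 7 genes (top block), 12 glucocorticoid-responsive genes (middle) and 13 clock genes (bottom), with 1 column for each heart. DMSO+Sham 3 stands out with high Mt2 (1368 FPKM), high Arntl (10.4 FPKM) and low Ucp3 (15.8 FPKM), and DMSO+AB 2 and 3 with low Acot1 and Ces1d.

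Over the 12 hearts the 7 genes fell into patterns that were only partly shared. Pearson correlations of log2(FPKM + 1), given as a description of hearts that share groups and libraries, were 0.83 between Acot1 and Acot2 and 0.77 between Acot1 and Ces1d. Without the 2 hearts farthest from the median of Acot1 these were 0.72 and 0.40, so the second rested on those hearts. Once group means were removed over all 12 hearts, they were 0.63 and 0.26. Acot1 and Acot2 share read windows, and the part of this in their correlation was not tested. Acot2 correlated by 0.81 with both Ces1d and Plin5, and by 0.31 and 0.61 once group means were removed. Pdk4 and Angptl4 correlated by 0.81 (0.67 without 2 hearts) and by 0.86 once group means were removed. For Ucp3 and Plin5 the values were 0.76 (0.73 without 2 hearts) and 0.75. Ces1d correlated with Angptl4 by -0.12 (-0.43 without 2 hearts) and with Pdk4 by 0.17 (-0.25 without 2 hearts).

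Among all genes tested, the 5 whose values followed Acot1 most closely over the 12 hearts were Ephx2 (0.94), a soluble epoxide hydrolase, Ggt5 (0.94), Cacna1c (0.93), Gcdh (0.93) and Selenbp1 (0.93), with Spearman correlations of 0.87 to 0.96. After removal of the group means they were Epop (0.93), Nos1ap (0.92), Khk (0.91), Lama5 (0.91) and Ephx2 (0.91). For Ces1d the closest included Acaa2 (0.98), Pogz (0.97), Hadha (0.97) and Hrc (0.96), with Spearman correlations of 0.92 to 0.98. After removal of the group means they included Pogz (0.96), Acaa2 (0.94), Celsr2 (0.94) and Med23 (0.93). Ephx2 was thus on both lists of Acot1, and Acaa2 and Pogz were on both lists of Ces1d. Without the 2 hearts farthest from the median of Ces1d, its correlation with Acaa2 was 0.95 by values and 0.66 after removal of group means.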

How the data were processed

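RNA from left ventricular muscle of 12 mice was sequenced by the study on a BGISEQ-500 (single-end reads of 50 bases). The authors deposited FPKM per gene and mouse, rounded to 0.01. The submitters' processing notes name HISAT2 2.0.4, Bowtie2 2.2.5, RSEM 1.2.12 and DESeq2 1.4.5 without roles, and the genome build and annotation are not given in the sources used here. Groups came from the sample labels. Symbols were matched by NCBI Gene identifier (RefSeq, 17947 of 18079 genes). The 7 genes and all gene lists were chosen with earlier results of these data known.

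FPKM were used as deposited. Limma 3.58.1 (R 4.3.3) was fitted to log2(FPKM + 1) of the 11664 genes with at least 1 FPKM in at least 3 libraries, with 1 mean per group, 8 error degrees of freedom before moderation, a mean-variance trend, two-sided contrasts and Benjamini-Hochberg adjustment. The fit was tested on simulated data. The fold changes are on the log2(FPKM + 1) scale, which understates changes of low genes. Read windows came from GENCODE transcripts, and alignment used Biopython 1.88 (Python 3.11.15).

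Named in the text were the 7 genes, in each list the genes that passed (up to the 6 of largest change) or otherwise the highest and the lowest, and a preset group of receptors, relatives and partners. In likeness, the 5 genes of highest Pearson correlation were taken. Values of 2 genes that the rule selects are not reported here. Residuals of same-numbered mice correlated by 0.126 to 0.330 between the sham groups and by 0.147 to 0.228 between the hispidulin groups. Between the DMSO groups the range was -0.198 to -0.0239, and between the AB groups it was -0.183 to 0.300. The labels tie the numbers to no litter or day, so a pairing could be read from these values alone. All differences, SEs and counts of the main fit are unpaired. The replicate number entered only as a block over all libraries, in an alternative fit.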

Additional observations from a re-analysis of the deposited data

How the results depend on the processing

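Depth is unknown, so no counting error is available. For DMSO+AB against DMSO+Sham, the count of 3 of the 7 genes was 1 with no filter on low values, 0 with the series of label numbers as covariate, 0 in a fit of the libraries compared, 0 at the criteria of the study's methods (adjusted p of at most 0.001 and absolute log2 change of at least 1), and 0 to 3 without 1 replicate. It was 0 without the 3 libraries of highest Myl7, a setting that was picked after the data had been seen. With the series as covariate the Ucp3 difference moved from -0.76 to -0.16. The count of 12 of 31 other PPAR target genes was 6, 1, 0 and 0 under the first 4 of these settings in that order, 0 to 18 without 1 replicate and 0 without the 3 libraries. For hispidulin+AB against DMSO+AB, the counts of 0 were 0 to 1 without 1 replicate, for the 7 genes and for the other targets alike. For hispidulin+AB against hispidulin+Sham, the count of 0 of the 7 genes was 1 in a fit of the libraries compared (Ces1d). With the replicate block the counts of the 7 genes were 3 and, in the other 4 comparisons, 0, so the block changed no call count of these genes. That of the other targets was 10 in DMSO+AB against DMSO+Sham. The count over all genes in that comparison moved from 608 to between 91 and 1050 without 1 replicate, to 11 in a fit of the libraries compared, to 383 with no filter, to 142 with the series and to 20 without the 3 libraries. The cause was not tested. No difference of Acot1, Acot2 or Ces1d under AB with DMSO changed sign, and 39 values did so for 12 of the 35 combinations of gene and comparison, all of them without a call. Among the other lists, cell type markers left aside, 5 had a call, all in DMSO+AB against DMSO+Sham. Of their 110 counts under the alternatives 70 were lower, 3 higher and 37 within 1.5 times. The ventricular, atrial, skeletal muscle and fibroblast markers also had calls in this comparison and are not in these counts.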
